A study of Rattus norvegicus with 14 samples.

Results

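The 10 genes described here are markers of resting microglia and the chains of complement C1q: P2ry12, Cx3cr1, Csf1r, Tmem119, Aif1, Trem2, Itgam, C1qa, C1qb and C1qc. They were chosen by name, as genes known to be expressed mainly by microglia in healthy brain, and all 10 were found among the 22601 genes of the deposited tables. RNA sequencing had been carried out on hippocampus of wild-type Wistar rats weighing 180 to 220 g. In the PTZ+Q808 group (n = 5) the seizure model made with PTZ was combined with Q808, in the PTZ group (n = 5) the same model received vehicle, and in the control group (n = 4) rats received vehicle without PTZ. Pentylenetetrazole, shortened to PTZ, provokes seizures by blocking inhibitory GABA receptors, and Q808 is a compound known here only by its code name. The sources used here did not give doses, times of sampling, age or sex. The PTZ+Q808 and control groups differ in both PTZ and Q808. Each library was taken as 1 rat, as the group sizes of the design text imply. The comparisons asked how microglial transcripts stood after PTZ, and after PTZ with Q808.

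Microglia are the resident macrophages of the brain. They depend on the receptor Csf1r for survival, sense their surroundings through receptors such as Cx3cr1 and P2ry12, and in the healthy brain are the main source of C1q, the recognition molecule that starts the classical complement pathway and can tag synapses. When microglia respond to injury, transcripts of the resting state such as P2ry12 and Tmem119 are often reduced, while genes of phagocytosis and inflammation rise. Transcripts were measured in whole tissue, so fewer microglia and less RNA per microglial cell cannot be told apart here.

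Levels are given in FPKM, fragments scaled by transcript length and by library size, as computed by the authors. The FPKM values were whole multiples of 1 fragment, which gave back 15211214 to 18433388 fragments per library, up to a divisor common to all libraries. All 10 genes passed the filter of at least 1 FPKM in at least 4 libraries, and 12744 genes were tested in all. A list of 24 other microglial genes had 20 members above that filter, with a summed level of 334 to 419 FPKM in PTZ+Q808, 321 to 400 in PTZ and 345 to 447 in control libraries. Of the 4 below it Siglech, known as a microglial receptor in mouse, was listed at 0 in all PTZ+Q808 and control libraries. Some libraries stood apart in the makeup of the tissue. Ttr, a choroid plexus transcript, was at most 329 FPKM in 1 library of each group and at least 1315 FPKM in the other 11. Control replicate 2 had a summed level of striatal markers of 720 FPKM, against 65.0 to 87.4 FPKM in the other control libraries. Y-linked transcripts reached 1 FPKM in 3 of 5 PTZ+Q808, 3 of 5 PTZ and 2 of 4 control libraries.

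The order of the levels was led by complement. Over the 14 libraries C1qa averaged 51.2 ± 8.15 FPKM, C1qb 36.1 ± 4.55 and Csf1r 25.4 ± 2.84 (SD), and each of these was above the next in 14 of 14 libraries. Cx3cr1 (19.0 ± 3.17 FPKM) and C1qc (18.0 ± 2.76 FPKM) could not be ordered, since Cx3cr1 was the higher in 7 of 14 libraries. Below them stood Tmem119 at 12.7 FPKM, Aif1 at 10.2, Trem2 at 6.13, P2ry12 at 4.00 and Itgam at 3.00. P2ry12 was above Itgam in 11 of 14 libraries, so their order is less firm than that at the top. C1qa lay at the 87.8th percentile of all tested genes by mean level and Itgam at the 20.5th percentile.

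The precision of these values was set by differences between libraries more than by counting. Trem2 rested on the fewest fragments, 71 to 178 per library, and Csf1r on the most, 1422 to 2317. The spread within groups was 2.55 times that expected from counting alone for Trem2 and 5.03 times for Tmem119, with the other 8 genes between these. Counting intervals given below are exact Poisson 95% intervals and cover counting error only.

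**Figure D1:**
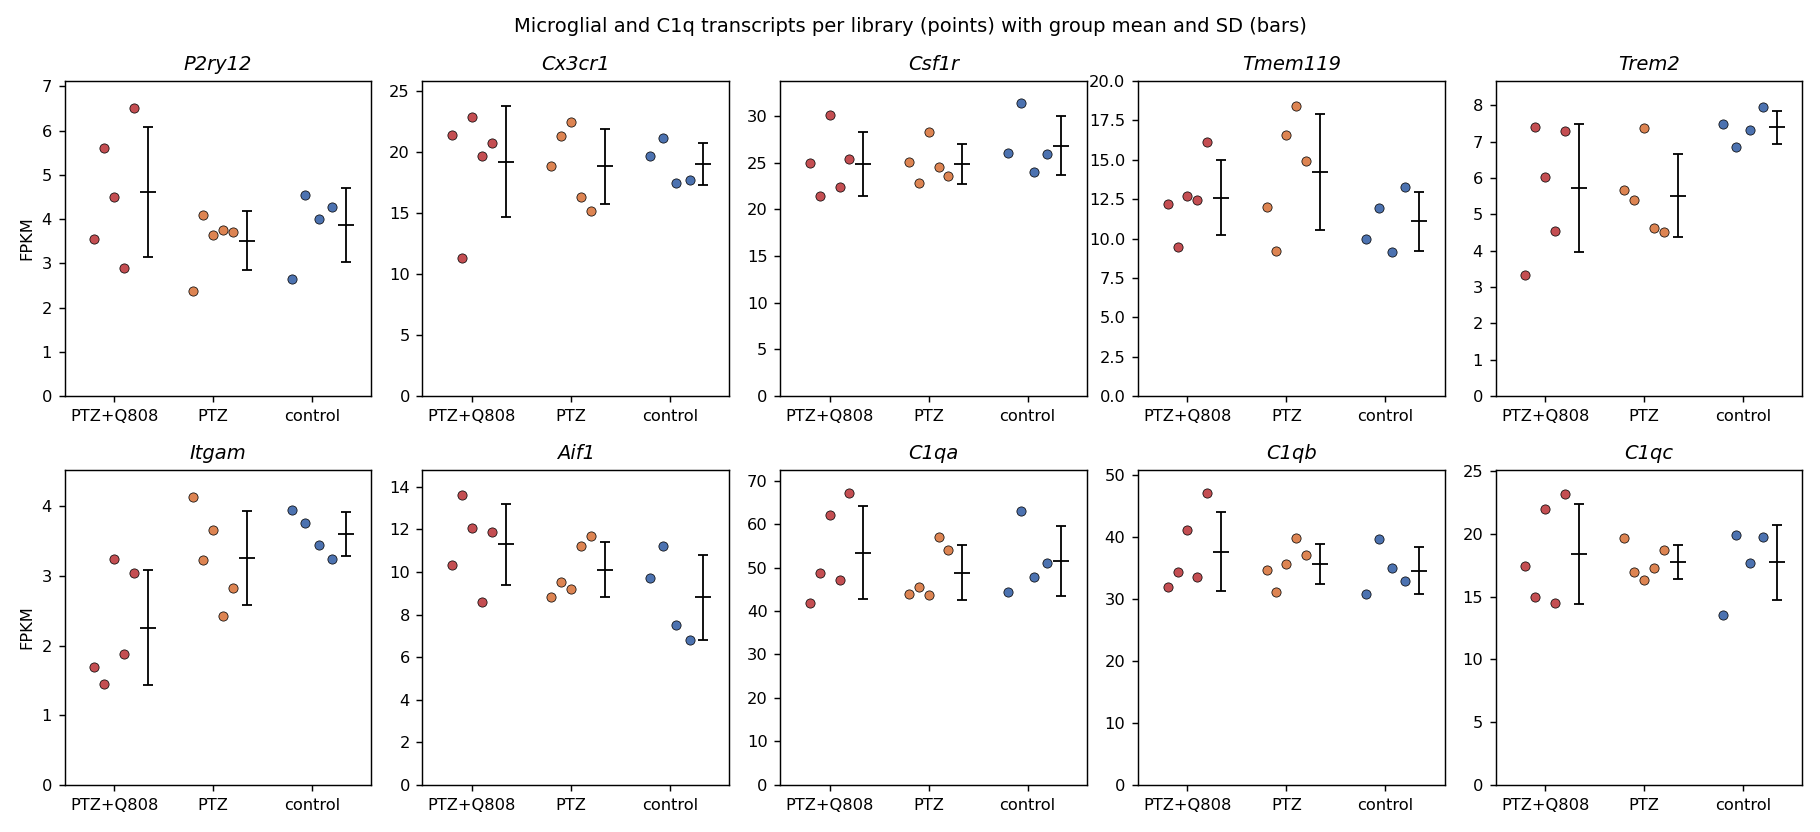
FPKM of the 10 genes in each library (points, linear axis starting at 0), with the mean and SD of each group (bar and whiskers, n = 5 PTZ+Q808, 5 PTZ and 4 control libraries). Only for Itgam do all PTZ+Q808 libraries lie below all control libraries, and the highest of them, at 3.241 FPKM, is next to the lowest control library, at 3.245 FPKM.

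None of the 10 genes passed the test in any comparison. PTZ against control called 0 of 10 genes with limma at a Benjamini-Hochberg adjusted p under 0.05, where 0.0314% of the 12744 tested genes were called. PTZ+Q808 against PTZ called 0 of 10, where 0.0% of all genes were called. PTZ+Q808 against control called 0 of 10, where 2.87% of all genes were called. These counts give the small share of genes called anywhere in this data set beside the microglial genes. With limma voom on the recovered fragments, the count was also 0 of 10 in each comparison.

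At an unadjusted p under 0.05 the shares were near those of all genes. PTZ against control had 1 of 10 genes (Trem2), where 8.11% of all tested genes had such a p. PTZ+Q808 against PTZ had 1 of 10 (Itgam), where the share of all genes was 6.14%. PTZ+Q808 against control had 2 of 10 (Itgam and Aif1), where the share was 20.7%. The median log2 change of the 10 genes was -0.05, 0.02 and 0.04 in these 3 comparisons, taken in the same order, beside -0.01, -0.00 and -0.02 for all tested genes. All log2 changes are on the log2(FPKM + 1) scale, which understates the change of genes of low FPKM such as Itgam.

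**Figure D2:**
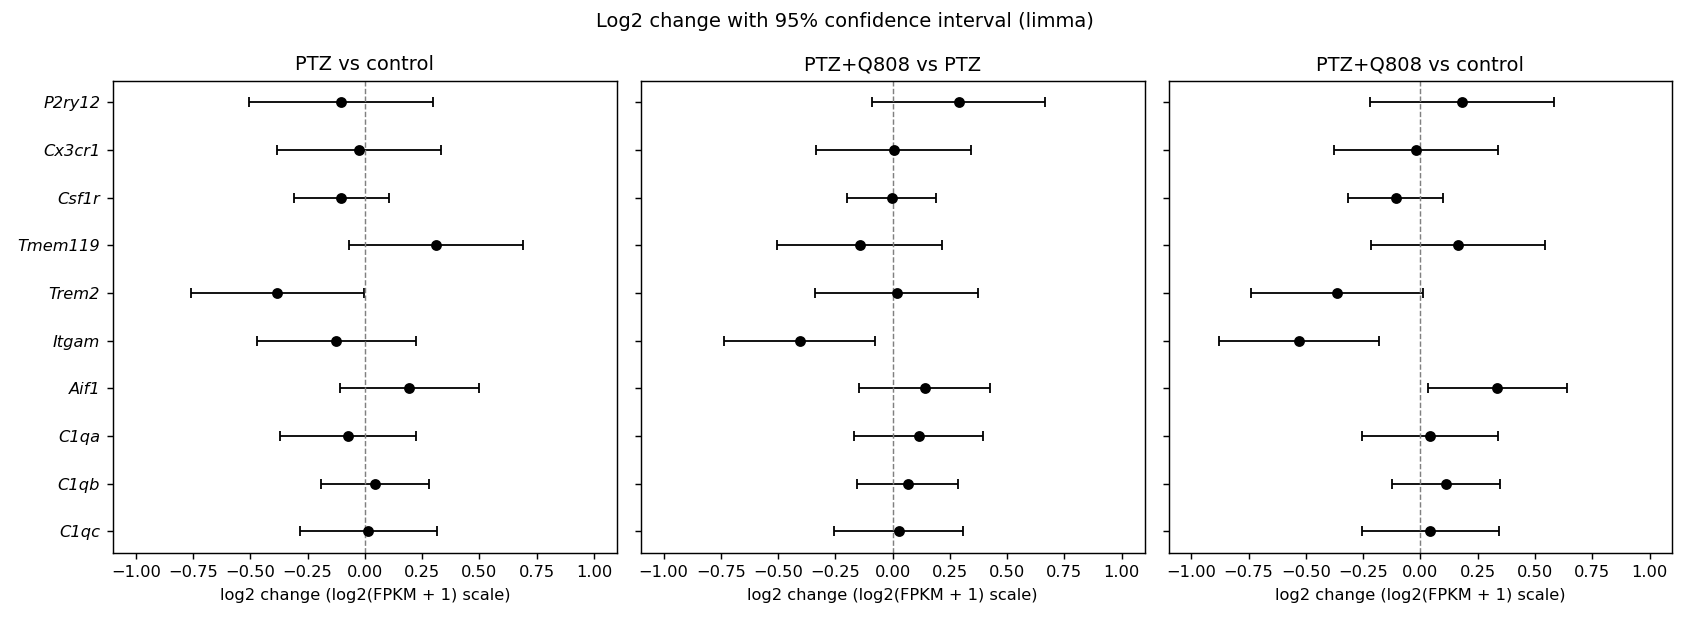
Log2 change of each gene on the log2(FPKM + 1) scale (points) with its 95% confidence interval from limma (lines) in the 3 comparisons. The interval excludes 0 for Trem2 in PTZ against control, for Itgam in both comparisons of PTZ+Q808 and for Aif1 in PTZ+Q808 against control, and no gene passed after adjustment over 12744 genes.

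Csf1r, the receptor for the growth factors Csf1 and Il34 on which microglia depend, varied least of the 10 genes. It ranged over 21.5 to 30.1 FPKM in PTZ+Q808, 22.8 to 28.3 FPKM in PTZ and 24.0 to 31.3 FPKM in control libraries, so the groups overlapped over most of their range. Its log2 change was -0.10 in PTZ against control (95% CI -0.311 to 0.105), -0.01 in PTZ+Q808 against PTZ (-0.201 to 0.191) and -0.11 in PTZ+Q808 against control (-0.316 to 0.1). These intervals are the narrowest of the 10 genes. Il34, the ligand made mainly by neurons, averaged 23.9 ± 2.65 FPKM in PTZ+Q808, 22.5 ± 0.895 FPKM in PTZ and 21.8 ± 1.49 FPKM in control libraries. Csf1, the other ligand, averaged 2.78 ± 0.362, 3.26 ± 0.546 and 3.89 ± 0.641 FPKM in PTZ+Q808, PTZ and control. Its log2 change in PTZ+Q808 against control was -0.37 ± 0.114 (SE) with a limma adjusted p of 0.0879, which missed the threshold.

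Cx3cr1 is the receptor for fractalkine, a ligand that neurons present on their surface. Its level was 21.4, 11.3, 22.8, 19.6 and 20.7 FPKM in the 5 PTZ+Q808 libraries, 18.8, 21.3, 22.4, 16.3 and 15.2 FPKM in the 5 PTZ libraries, and 19.7, 21.2, 17.5 and 17.7 FPKM in the 4 control libraries. PTZ+Q808 replicate 2 was the lowest of all 14 libraries, and the others of its group overlapped with both other groups. The log2 change was 0.00 in PTZ+Q808 against PTZ (95% CI -0.334 to 0.342), -0.02 in PTZ against control (-0.383 to 0.334) and -0.02 in PTZ+Q808 against control (-0.379 to 0.338). Without PTZ+Q808 replicate 2 the change in PTZ+Q808 against PTZ was 0.17, with a limma adjusted p of 0.904. Cx3cl1, which encodes fractalkine, averaged 181 ± 26.7 FPKM in PTZ+Q808, 178 ± 31.5 in PTZ and 168 ± 17.1 in control libraries.

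P2ry12, the ADP receptor through which microglial processes reach sites of injury, was low in this tissue. It was 3.55, 5.60, 4.49, 2.89 and 6.51 FPKM in PTZ+Q808 libraries, 2.37, 4.08, 3.65, 3.76 and 3.70 FPKM in PTZ libraries, and 2.65, 4.55, 3.99 and 4.27 FPKM in control libraries. The 2 highest libraries belonged to PTZ+Q808, and the ranges of all groups overlapped. Its log2 change was -0.11 in PTZ against control (95% CI -0.507 to 0.296), 0.29 in PTZ+Q808 against PTZ (-0.0909 to 0.666) and 0.18 in PTZ+Q808 against control (-0.219 to 0.584). The limma adjusted p in PTZ+Q808 against PTZ was 0.838, and the exact permutation test over these libraries gave p = 0.198. In the current rat annotation P2ry12 overlaps Med12l and Cx3cr1 overlaps LOC134480114, and the sources used here do not say whether the authors counted by strand, so reads of those genes may contribute to both levels.

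Tmem119, a membrane protein used to tell microglia from blood-derived macrophages, had its highest levels in PTZ libraries. It was 12.2, 9.49, 12.7, 12.4 and 16.1 FPKM in PTZ+Q808, 12.03, 9.19, 16.6, 18.4 and 14.95 FPKM in PTZ, and 10.0001, 11.95, 9.13 and 13.3 FPKM in control libraries. In PTZ, 3 of 5 libraries were above every control library, and replicate 2 was near the lowest of them. The log2 change was 0.31 ± 0.178 (SE) in PTZ against control, with a 95% CI of -0.0712 to 0.69 and a limma adjusted p of 0.679. It was -0.14 in PTZ+Q808 against PTZ (-0.503 to 0.214) and 0.16 in PTZ+Q808 against control (-0.216 to 0.545).

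Aif1 encodes Iba1, the calcium-binding protein stained in microglia to show their shape. It was 10.3, 13.6, 12.1, 8.60 and 11.9 FPKM in PTZ+Q808, 8.83, 9.51, 9.20, 11.2 and 11.7 FPKM in PTZ, and 9.71, 11.2, 7.49 and 6.83 FPKM in control libraries. In PTZ+Q808, 3 of 5 libraries were above the highest control library, and 2 control libraries were below every PTZ+Q808 library. The log2 change was 0.33 in PTZ+Q808 against control (95% CI 0.031 to 0.638), with a limma adjusted p of 0.199 and an exact permutation p of 0.111. It was 0.19 in PTZ against control (-0.11 to 0.497) and 0.14 in PTZ+Q808 against PTZ (-0.145 to 0.427). Among libraries with Y-linked transcripts Aif1 averaged 10.85 FPKM in 3 PTZ+Q808 and 10.45 FPKM in 2 control libraries, and among those without it averaged 11.96 FPKM in 2 PTZ+Q808 and 7.16 FPKM in 2 control libraries. The difference between these subsets was not tested.

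Trem2 is a lipid-sensing receptor that signals through the adaptor Tyrobp and takes apolipoprotein E among its ligands. Its level was 3.33, 7.42, 6.03, 4.54 and 7.28 FPKM in PTZ+Q808 libraries, 5.67, 5.40, 7.36, 4.62 and 4.53 FPKM in PTZ libraries, and 7.48, 6.85, 7.33 and 7.94 FPKM in control libraries. In PTZ, 4 of 5 libraries were below every control library and replicate 3 was within the control range. In PTZ+Q808, 3 of 5 were below. Control libraries lay close together, with a CV of 6.12%, beside 20.7% in PTZ and 30.9% in PTZ+Q808. The lowest library, PTZ+Q808 replicate 1, rested on 71 fragments, with a counting interval of 2.602 to 4.203 FPKM that ends below the lowest control value.

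Trem2 averaged 5.51 ± 1.14 FPKM in PTZ and 7.40 ± 0.453 FPKM in control libraries, a log2 change of -0.38 ± 0.176 (SE). Its 95% CI was -0.759 to -0.00491, its limma adjusted p was 0.604, and its exact permutation p was 0.0317, where 0.00794 is the smallest that 5 against 4 libraries can give. In PTZ+Q808 (5.72 ± 1.77 FPKM) against control the log2 change was -0.36, with an adjusted p of 0.256 and an exact permutation p of 0.127. Between PTZ+Q808 and PTZ it was 0.02 (95% CI -0.338 to 0.373). The partners of Trem2 had values of their own that did not pass the test. Tyrobp averaged 18.5 ± 3.30 FPKM in PTZ+Q808, 16.15 ± 3.20 in PTZ and 16.9 ± 2.91 in control libraries. Apoe averaged 1690 ± 207, 1590 ± 162 and 1726 ± 139 FPKM in PTZ+Q808, PTZ and control. The ratio of Trem2 to Tyrobp within a library was 0.305 ± 0.0598 in PTZ+Q808, 0.348 ± 0.0734 in PTZ and 0.451 ± 0.107 in control, a measure added after the values had been seen and given without a test.

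Itgam encodes CD11b, the chain that pairs with the product of Itgb2 to form complement receptor CR3, through which microglia and blood phagocytes bind fragments of C3. It came nearest to the threshold of the 10 genes. Its level was 1.69, 1.44, 3.24, 1.88 and 3.04 FPKM in PTZ+Q808 libraries, 4.14, 3.23, 3.66, 2.43 and 2.83 FPKM in PTZ libraries, and 3.95, 3.76, 3.45 and 3.24 FPKM in control libraries. Of the PTZ+Q808 libraries 3 lay at 1.44 to 1.88 FPKM and 2 at 3.04 to 3.24 FPKM, and none of the 5 reached the lowest control library. At 4 digits the closest values were 3.241 FPKM in PTZ+Q808 replicate 3 and 3.245 FPKM in control replicate 4, whose counting intervals, 2.84 to 3.69 FPKM in each, overlap almost wholly.

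Itgam averaged 2.26 ± 0.824 FPKM in PTZ+Q808 and 3.602 ± 0.315 FPKM in control libraries, a log2 change of -0.53 ± 0.163 (SE, 95% CI -0.88 to -0.182). The limma p was 0.00561 before adjustment and 0.0864 after it, and the exact permutation p was 0.0397. It was the 1 gene of the 10 whose groups did not overlap in this comparison, where 8.91% of all tested genes did not overlap. No gene of the 10 separated the groups in PTZ against control or in PTZ+Q808 against PTZ, where the shares of all genes were 3.03% and 0.777%. In PTZ+Q808 against PTZ, which averaged 3.26 ± 0.672 FPKM, the log2 change of Itgam was -0.41 (95% CI -0.736 to -0.0777), with an adjusted p of 0.76 and an exact permutation p of 0.0794. In PTZ against control it was -0.12 (-0.473 to 0.225). PTZ+Q808 shares its libraries between both of its comparisons, so these are not separate observations.

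The difference in Itgam was larger among libraries with Y-linked transcripts, and the labels do not give sex. Among libraries with them, Itgam was 1.44 to 1.88 FPKM in 3 PTZ+Q808 libraries and 3.76 to 3.95 FPKM in 2 control libraries, a log2 difference of -0.865. Among libraries without them it was 3.04 to 3.24 FPKM in 2 PTZ+Q808 and 3.24 to 3.45 FPKM in 2 control libraries, a log2 difference of -0.07. These subsets were examined after the values had been seen, hold 2 or 3 libraries a group, and the difference between them was not tested. With a term for Y-linked transcripts in the fit over all libraries, the log2 change was -0.52 and the limma adjusted p was 0.083. The 3 low libraries include PTZ+Q808 replicate 1, 1 of the libraries low in Ttr, and without the 3 libraries low in Ttr the change was -0.49 with an adjusted p of 0.287.

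Itgb2, the partner chain, averaged 2.82 ± 0.696 FPKM in PTZ+Q808, 3.31 ± 0.986 FPKM in PTZ and 3.08 ± 0.808 FPKM in control libraries, and its groups overlapped. Its log2 change in PTZ+Q808 against control was -0.09 (limma adjusted p = 0.81). Split as Itgam was, this difference was -0.496 among libraries with Y-linked transcripts (3 PTZ+Q808 and 2 control). Among those without them (2 and 2 libraries) it was 0.388. The Itgb2 subsets were likewise examined after the values had been seen and were not tested. The ratio of Itgam to Itgb2 was 0.79 ± 0.13 in PTZ+Q808, 1.01 ± 0.204 in PTZ and 1.22 ± 0.252 in control libraries, and the ratio of Itgam to Aif1 was 0.203 ± 0.0679, 0.333 ± 0.106 and 0.42 ± 0.0632. Both ratios were added after the values had been seen and carry no test. C3, whose fragments CR3 binds, averaged 4.225 ± 1.38 FPKM in PTZ+Q808, 4.84 ± 0.593 in PTZ and 6.14 ± 1.89 in control libraries, with a log2 change of -0.45 in PTZ+Q808 against control (adjusted p = 0.215). Of the 7 ligands and partners of the 10 genes, 0 were called in each comparison with limma, and 2 (Csf1 and C3) had an unadjusted p under 0.05 in PTZ+Q808 against control.

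**Figure D3:**
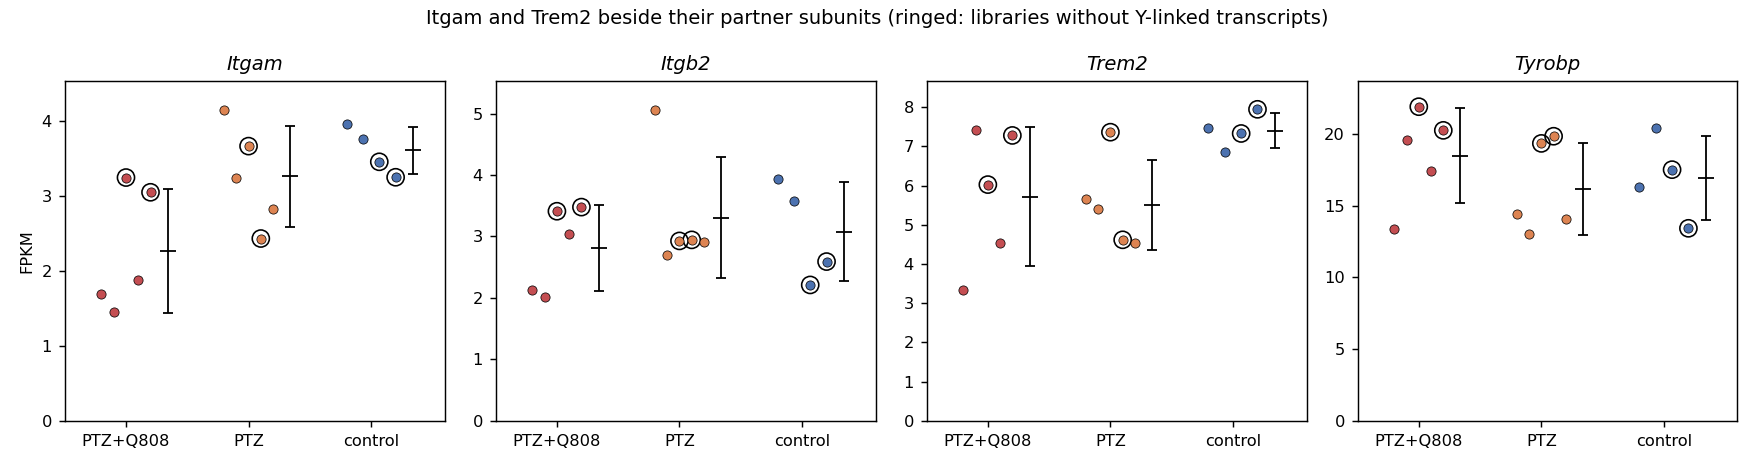
FPKM of Itgam and Trem2 beside their partner chains Itgb2 and Tyrobp in each library (points, linear axes starting at 0), with the mean and SD of each group; rings mark the libraries without Y-linked transcripts. The 3 PTZ+Q808 libraries lowest for Itgam, at 1.44 to 1.88 FPKM, are the 3 of that group without rings.

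Itgam is also made by neutrophils and monocytes. The summed level of 16 blood leukocyte genes was 11.3 to 19.8 FPKM in PTZ+Q808, 5.03 to 18.5 FPKM in PTZ and 6.14 to 8.47 FPKM in control libraries, and none of these genes was at 0 in all libraries. Of the 5 tested, 1 was called in PTZ+Q808 against control: Prtn3, a protease of neutrophil granules, averaged 1.93 ± 0.54 FPKM in PTZ+Q808, 0.713 ± 0.369 FPKM in PTZ and 0.674 ± 0.356 FPKM in control libraries, with a log2 change of 0.81 and a limma adjusted p of 0.0331. No gene of any of the lists was called when control replicate 1, 3 or 4 or PTZ+Q808 replicate 1, 3 or 5 was left out. S100a9, a neutrophil protein, averaged 4.76 ± 2.29, 2.755 ± 2.02 and 1.15 ± 0.503 FPKM in PTZ+Q808, PTZ and control (adjusted p = 0.0725 in PTZ+Q808 against control). Not all of the 5 tested genes were higher. In both comparisons with control 4 were positive and 1 negative, and in PTZ+Q808 against PTZ 3 were positive and 2 negative. The part of blood cells in the level of Itgam was not tested.

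C1qa and C1qb had the highest levels of the 10 genes, and none of the 3 C1q chains had a change that passed the test. C1qa was 41.9, 48.8, 62.2, 47.1 and 67.1 FPKM in PTZ+Q808 libraries, 43.8, 45.5, 43.7, 57.1 and 54.1 FPKM in PTZ libraries, and 44.4, 62.9, 47.8 and 51.1 FPKM in control libraries. C1qb was 32.0, 34.4, 41.2, 33.6 and 47.2 FPKM in PTZ+Q808, 34.7, 31.1, 35.7, 39.8 and 37.0 FPKM in PTZ, and 30.8, 39.7, 35.0 and 32.9 FPKM in control libraries. PTZ+Q808 replicate 5 was the highest of all 14 libraries for both, and PTZ+Q808 replicate 3 was second for C1qb. C1qc ran over 14.5 to 23.2 FPKM in PTZ+Q808, 16.3 to 19.6 FPKM in PTZ and 13.6 to 19.9 FPKM in control libraries. The groups overlapped for all 3 chains. Between PTZ+Q808 and control libraries with Y-linked transcripts the log2 difference was -0.202 for C1qa, -0.0692 for C1qb and -0.0735 for C1qc. Between those without them it was 0.38, 0.368 and 0.26. These subsets hold 2 or 3 libraries a group, and the difference between them was not tested.

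In PTZ against control the log2 change was -0.07 for C1qa (95% CI -0.371 to 0.224), 0.04 for C1qb (-0.19 to 0.279) and 0.02 for C1qc (-0.282 to 0.314). In PTZ+Q808 against PTZ it was 0.11 for C1qa (-0.167 to 0.394), 0.07 for C1qb (-0.155 to 0.287) and 0.03 for C1qc (-0.254 to 0.308). Between PTZ+Q808 and control it was 0.04 for C1qa, 0.11 for C1qb and 0.04 for C1qc. On the scale of FPKM + 1 the intervals for PTZ against control run from 0.773 to 1.17 times control for C1qa, 0.877 to 1.21 for C1qb and 0.822 to 1.24 for C1qc. The summed C1q level was 109.5 ± 20.6 FPKM in PTZ+Q808, 102 ± 9.19 FPKM in PTZ and 104 ± 14 FPKM in control libraries. The chains assemble in equal numbers in the protein, and the ratio of C1qa to C1qb transcripts was 1.41 ± 0.0713 in PTZ+Q808, 1.37 ± 0.116 in PTZ and 1.49 ± 0.1 in control libraries. Relative to the summed level of the other 7 genes, C1q stood at 1.35 ± 0.121 in PTZ+Q808, 1.28 ± 0.154 in PTZ and 1.29 ± 0.118 in control libraries.

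C1qb, C1qc and C1qa follow each other on chromosome 5 in the current rat annotation. The bases before the start of 4 genes are shown from RefSeq (GRCr8), C1qa and C1qb because their levels varied together and Itgam and Trem2 because their differences between groups were the largest, a choice made after the values had been seen. Capitals mark GAGGAA or its complement TTCCTC, letters of the kind of purine-rich site bound by the myeloid factor Spi1 (PU.1), and bases inside the gene model were left out.
C1qa, chr5:154419934-154420183, minus strand: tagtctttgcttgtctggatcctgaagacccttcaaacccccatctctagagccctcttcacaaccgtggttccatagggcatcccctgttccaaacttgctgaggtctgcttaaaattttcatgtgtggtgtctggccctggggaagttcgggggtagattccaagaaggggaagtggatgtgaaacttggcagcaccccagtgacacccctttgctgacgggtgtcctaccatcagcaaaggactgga
C1qb, chr5:154407828-154408077, minus strand: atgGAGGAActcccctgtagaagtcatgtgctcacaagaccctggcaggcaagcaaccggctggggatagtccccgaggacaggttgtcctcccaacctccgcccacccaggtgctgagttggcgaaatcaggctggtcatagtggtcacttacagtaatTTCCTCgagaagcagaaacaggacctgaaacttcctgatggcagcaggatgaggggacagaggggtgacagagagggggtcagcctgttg
Itgam, chr1:192089342-192089495, plus strand: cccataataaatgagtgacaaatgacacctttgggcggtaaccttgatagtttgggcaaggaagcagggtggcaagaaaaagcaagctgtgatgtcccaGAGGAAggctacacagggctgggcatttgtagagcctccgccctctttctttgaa
Trem2, chr9:20151798-20152029, minus strand: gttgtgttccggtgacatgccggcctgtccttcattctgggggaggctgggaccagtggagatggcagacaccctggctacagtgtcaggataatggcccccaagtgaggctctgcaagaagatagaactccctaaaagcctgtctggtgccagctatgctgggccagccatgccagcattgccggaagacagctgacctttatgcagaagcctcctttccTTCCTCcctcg
The table of promoters held 6 of the 10 genes, without P2ry12, Tmem119, Aif1 and C1qc. GAGGAA or its complement was found in the 250-base window of 4 of these 6 genes (Itgam, C1qb, Trem2 and Csf1r) and of 23.3% of 33469 promoters, and C1qa held none. The search covered the whole window, of which 96 bases for Itgam and 18 for Trem2 lie inside the gene model and are not shown. Itgam had 2 matches in its window and 1 in the bases shown. It was 1 of 7 patterns searched on both strands and was chosen for display after the matches were seen. The longer GAGGAAG was in 3 of 6 and 10.2% of all, and GAGGAAGT in 0 of 6 and 2.04%, both of which contain the shorter pattern. The overlapping AGGAAGT was in 1 of 6 and 7.08% of all, and the core GGAA that these share was in 6 of 6 and 93.2%. The TATA box TATAAA was in 0 of 6 and 12.9% of all. A pattern of TTTC and then TTC, parted by 0 to 2 bases, was in 2 of 6 and 19.5% of all. A match describes letters in these windows and shows no binding.

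Within groups, the 10 genes tended to vary together from library to library. After subtraction of each group's mean, Pearson's r on the log2(FPKM + 1) scale was positive for 40 of 45 pairs over the 14 libraries, with a median of 0.403. All pairs share the same libraries and their depth and tissue makeup. Only C1qa and C1qb passed the permutation test within groups after Benjamini-Hochberg adjustment over 45 pairs, with r = 0.911 (adjusted p = 0.009) and Spearman's rho = 0.837 (adjusted p = 0.111). Without the 2 libraries farthest from the median of C1qa, r was 0.852. It was 0.897 among the 8 libraries with Y-linked transcripts, 0.672 among the 6 without them and 0.939 without the 3 libraries low in Ttr. C1qb and C1qc had r = 0.718 and C1qa and C1qc r = 0.691, which did not pass.

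The 7 other genes were less closely tied to C1q and to each other. Csf1r, Cx3cr1 and Itgam formed pairs with r of 0.65 for Csf1r and Cx3cr1, 0.64 for Csf1r and Itgam and 0.66 for Cx3cr1 and Itgam, none past the adjusted threshold. Pairs with C1q chains reached similar values, 0.64 for Tmem119 and C1qb and 0.64 for P2ry12 and C1qa, which did not pass either. Aif1 and Cx3cr1 had the lowest value, r = -0.288. Against the mean of the other 9 genes, C1qb had the highest r, 0.861, and Cx3cr1 the lowest, 0.217. PTZ+Q808 replicate 5 was the highest of all libraries for 4 genes (P2ry12, C1qa, C1qb and C1qc). PTZ+Q808 replicate 2 was the lowest for 3 genes (Cx3cr1, Csf1r and Itgam) and the highest for 1 (Aif1), and it also had the fewest fragments and the largest shift toward short transcripts, with a median log2 deviation of -0.09 among the longest of 3 equal classes of genes and 0.07 among the shortest. The part of transcript length in these values was not tested.

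**Figure D4:**
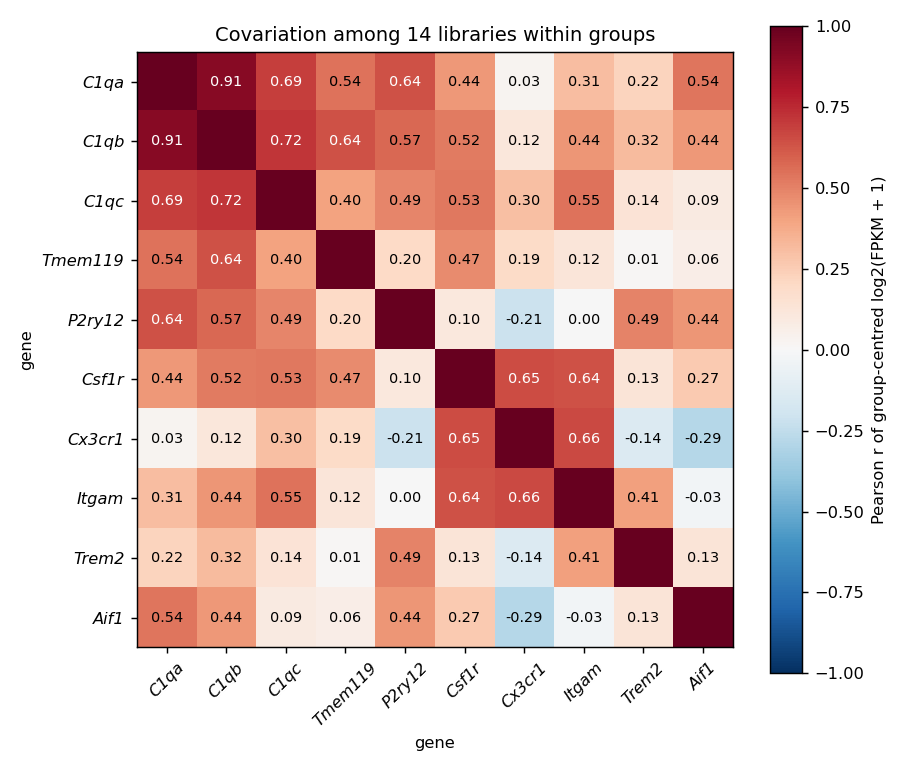
Pearson's r between each pair of the 10 genes over 14 libraries, on log2(FPKM + 1) values with each group's mean subtracted (colour scale from -1 to 1). The 3 C1q pairs are at 0.69 to 0.91, and the lowest pair, Cx3cr1 and Aif1, is at -0.29.

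The genes whose level within groups was most like the mean of the 10 were named by a rule, as the 10 tested genes of highest r. They were LOC100912481 (annotated as RNA-binding protein EWS-like, r = 0.908), Bhlhe41 (a transcription factor, 0.836), Slc2a1 (the glucose transporter of brain endothelium, 0.83), Smarcd3 (0.819), Havcr2 (0.813), Pir (0.812), Ifit2 (0.811), Zc3hav1 (0.8), Akap8l (0.781) and Fam169b (0.772). Havcr2 encodes TIM-3, a surface receptor that microglia carry, and its mean level was 1.31 FPKM. The list of other microglial genes had a median r of 0.412 with the mean of the 10, and 16 of its 20 tested genes were positive. The median over all 12734 other tested genes was -0.0175, with a 95th percentile of 0.478. Striatal markers had a median r of 0.404. Control replicate 2, which held the highest level of them, lay above its group's mean by 0.852 on average over the 10 genes, each in units of its own SD within groups. PTZ+Q808 replicates 5 and 3 lay further above their group's mean, by 1.27 and 0.939, with summed striatal markers of 83.1 and 127.9 FPKM. The part of striatal tissue in these values was not tested.

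Other microglial genes were called in 0 cases of 20 in each comparison with limma. In PTZ against control, 2 of 20 had a positive log2 change, with a median of -0.10, and 46.3% of all tested genes had a positive change. The genes of smallest p were Cd33 and Siglec5, both of the sialic acid-binding receptors. Cd33 averaged 2.70 ± 0.441 FPKM in PTZ and 4.27 ± 1.02 FPKM in control libraries, a log2 change of -0.50 (adjusted p = 0.315), and 2 of the 20 genes had an unadjusted p under 0.05. The same list had 13 of 20 positive in PTZ+Q808 against PTZ, with a median of 0.05, where 48.3% of all tested genes were positive. Siglec5 averaged 1.88 ± 0.795 FPKM in PTZ+Q808 and 0.903 ± 0.33 FPKM in PTZ libraries, a log2 change of 0.58 (adjusted p = 0.76), and 4 of 20 had an unadjusted p under 0.05. PTZ+Q808 and control share these libraries with the comparisons above, and between them 7 of 20 were positive, where 44.7% of all tested genes were, and 0 had an unadjusted p under 0.05.

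Transcription factors of microglia, 7 of 9 tested, had 0 called in each comparison. Their median log2 change was -0.04 in PTZ against control (2 positive, 5 negative) and 0.04 in PTZ+Q808 against PTZ (4 positive, 3 negative). It was -0.02 in PTZ+Q808 against control (2 positive, 5 negative). Spi1 averaged 2.28 ± 0.507 FPKM in PTZ+Q808, 1.86 ± 0.535 FPKM in PTZ and 1.86 ± 0.583 FPKM in control libraries. Irf8, which with Spi1 sets myeloid identity, averaged 2.48 ± 0.608 FPKM in PTZ and 3.485 ± 0.901 FPKM in control libraries (log2 change -0.36, limma adjusted p = 0.581). Of 26 genes of microglial activation 16 were tested and 0 called. The list went both ways, with 7 positive and 9 negative in PTZ against control (median log2 change -0.01). It had 10 positive and 6 negative in PTZ+Q808 against PTZ (median 0.08), and 8 of each in PTZ+Q808 against control (median 0.002). Ccl2, a chemokine that draws monocytes, averaged 1.104 ± 0.8 FPKM in PTZ+Q808, 0.781 ± 0.441 FPKM in PTZ and 0.0733 ± 0.0847 FPKM in control libraries, with an adjusted p of 0.0636 in PTZ+Q808 against control and 0.514 in PTZ against control. Tnf, which encodes an inflammatory cytokine, was at most 0.0352 FPKM in any library. Of 26 other complement genes 20 were tested and 0 called in each comparison.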

How the data were processed

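RNA was isolated from hippocampus by TRIzol and enriched for mRNA with capture beads before sequencing (BGI T7), per the labels' protocols. The deposited values are FPKM per gene, computed by the authors. The submitters' processing notes name the aligners HISAT2 and Bowtie2 and, beside them, Cufflinks, StringTie, HTSeq, DESeq, Trimmomatic and SAMtools, with no role or version. The sources used here do not give the genome build or the use of strand.

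Low FPKM values gave relative depth, after which 99.9947% of 18961 genes with signal were whole fragments (tolerance 0.02). Genes with signal in fewer than 4 libraries are hardly constrained by this check. Among the 17687 genes with signal in at least 4 libraries the share was 99.9943%. Recovered depth was 15211214 to 18433388 fragments per library. Genes of at least 1 FPKM in at least 4 libraries (12744) were fitted as log2(FPKM + 1) in limma 3.58.1 (R 4.3.3) with 1 term per group, a mean-dependent prior and 11 residual degrees of freedom. Tests were two-sided, with 0.05 as the limit of the Benjamini-Hochberg adjusted p. Exact permutation tests were two-sided over libraries, and those of correlations used 100000 resamples (SciPy 1.17.1). The fit was tested on simulated data with independent noise for each gene. Such data hold no differences in tissue makeup shared by many genes of a library, so they cannot show how these affect the fit.

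Named were the 10 genes, 7 ligands and partners, up to 2 genes of smallest p per list and comparison, and the 10 most alike genes. One gene that the rule names is not reported here. Other genes named were chosen after their values were seen. The members and the 18 lists were chosen with earlier results of these data known.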

Additional observations from a re-analysis of the deposited data

Results flagged for a closer look

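In 30 groups of values (10 genes in 3 groups), 2 held a library whose gap to the nearest other exceeded Dixon's 95% critical value, and chance gives about 1 in 20. P2ry12 was 2.365 FPKM in PTZ replicate 1, below the 3.65 to 4.08 FPKM of the other PTZ libraries. That library was at the same time the highest of all 14 for Itgam, at 4.14 FPKM. Cx3cr1 was 11.31 FPKM in PTZ+Q808 replicate 2, below the 19.6 to 22.8 FPKM of the other PTZ+Q808 libraries, and rested on 230 fragments there.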

How the results depend on the processing

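Over 29 alternative fits, 0 of 864 values of the 10 genes passed the adjusted threshold of 0.05, 0 moved by more than 1 SD, and 18 of 30 gene comparisons kept their sign in all. Itgam in PTZ+Q808 against control ranged over log2 changes of -0.73 to -0.44 and limma adjusted p of 0.0528 to 0.287. With the threshold alone raised to an adjusted p under 0.1, 1 gene was called (Itgam). Aif1 and Trem2 in that comparison had lowest adjusted p of 0.089 (without PTZ+Q808 replicate 4) and 0.0943 (weights per library). A minimum of 5 FPKM left no value for Itgam and P2ry12. The cause of the changes below was not tested.

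Genes called in PTZ against control numbered 4. They were 1 with no filter, 0 with only the compared groups fitted, 7 with weights per library, 8 with a Y-linked term, 2 with a Ttr covariate, 1 at an adjusted p under 0.01, and 1 to 5 with 1 library left out. In PTZ+Q808 against PTZ, with 0 called (783 at an unadjusted p under 0.05), no filter called 2, both of them blood leukocyte genes (Mpo and Elane). In PTZ+Q808 against control, with 366 called, the count was 190 with no filter, 199 with only the compared groups, 1100 with weights, 564 with a Y-linked term, 0 without the 3 libraries low in Ttr, 980 at an adjusted p under 0.1 and 15 under 0.01. Leaving out 1 library gave 17 to 673, the lowest without control replicate 1 and the highest without PTZ+Q808 replicate 4.

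List genes called in PTZ+Q808 against control numbered 1. They were 2 at a pseudocount of 0.1, 2 with no filter, 0 at a minimum of 5 FPKM, 3 with only the compared groups, 5 with weights, 5 with a Y-linked term, 0 without the libraries low in Ttr, 6 at an adjusted p under 0.1, 0 under 0.01, and 0 to 3 with 1 library left out. Added after the data had been seen, voom on recovered fragments called 1 gene in PTZ against control. In PTZ+Q808 against control it called 359 genes, 2 of them list genes. Leaving out control replicate 2 and PTZ+Q808 replicates 2 and 3, also added then, gave 0 genes in PTZ against control. In PTZ+Q808 against control that fit called 1 gene, beside 366 in the main fit, and 0 list genes.

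With the replicate number as a block, genes called were 0 in PTZ against control, 0 in PTZ+Q808 against PTZ and 4 in PTZ+Q808 against control, with 0 list genes and 0 of the 10 genes. Same-numbered libraries deviated together with r of -0.28 to 0.14, and differently numbered ones with r of -0.45 to 0.39. Y-linked transcripts were present in every replicate 1 and 2, absent from every replicate 3, and mixed for replicates 4 and 5. These values cannot tell whether the numbers stand for a shared order or batch, since r over all genes may miss it. Of the 10 genes, the error from counting alone was largest for Trem2 (8.89%) and Itgam (7.19%). Relative to the spread within groups it weighed most for Trem2 and Aif1, whose spread was 2.55 and 2.72 times that from counting, beside 3.57 times for Itgam.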

Other observations

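Genes of the meninges and fibroblasts had a positive log2 change for 9 of 9 in each comparison, with 0 called by limma. Their summed level was 88.7 to 260.5 FPKM in PTZ+Q808, 89.8 to 313 FPKM in PTZ and 70.4 to 141 FPKM in control libraries, and Dcn, a matrix proteoglycan, had a log2 change of 0.72 in PTZ+Q808 against control (adjusted p = 0.114). Border macrophages, which share Csf1r, Cx3cr1 and C1q with microglia, were positive for 5 of 5 in PTZ against control and in PTZ+Q808 against control, with 0 called. Myelin genes of oligodendrocytes were negative for 9 of 10 in PTZ+Q808 against control with a median of -0.38, and Mag had an adjusted p of 0.157. Hemoglobin and other red blood cell genes were positive for 6 of 6 in both comparisons of PTZ+Q808 and for 0 of 6 in PTZ against control (median -0.18), with 0 called in each. Oligodendrocyte precursors, astrocytes, excitatory and inhibitory neurons, hippocampal subfields, endothelium and mural cells, choroid plexus and striatum also had 0 called in each comparison. Among genes below the filter, Mpo, a neutrophil enzyme, averaged 1.09 ± 0.392 FPKM in PTZ+Q808, 0.0271 ± 0.0375 FPKM in PTZ and 0.0477 ± 0.0241 FPKM in control libraries.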
